A study of Mus musculus with 18 samples.

Results

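The spleens compared here came from ICR mice, an outbred laboratory strain, aged 10 weeks. In the group labelled STZ-A10 the animals had received streptozotocin (STZ), a toxin of pancreatic β cells whose single dose is used as a model of type 1 diabetes, together with alginate oligosaccharide (AOS, short sugar chains cut from brown algal alginate) at 10 mg per kg, and in the group labelled Con they were untreated controls on regular diet with saline. The comparison takes 6 of the 18 libraries of the series, 3 from each group, and asks which genes still stood apart from Con in diabetic animals that were also given AOS. Both other factorial groups serve as reference, namely STZ (streptozotocin without AOS) and A10 (AOS at the same dose without streptozotocin), with 3 libraries each. The libraries from animals given streptozotocin and fecal transplants entered the estimate of the spread. They are otherwise described only for Pdk4, Per1, Ier3, Ass1 and Kap. How long and by which route AOS was given to these animals, and their blood glucose, are not given in the sources used here, so that each group is described by its label. The labels number the libraries of a group as separate samples without naming the animals, so p-values measure the spread between these samples.

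The values were RPKM, reads scaled to gene length and to the mapped reads of the library, so that levels of different genes are on a scale per length. A gene was tested when it reached an RPKM of 1 in at least 3 of the 6 libraries, which left 12455 genes. All 15 spleen markers examined were present in every one of the 6 libraries, among them the spleen-patterning gene Tlx1 (12.2 to 24.0 RPKM). The summed RPKM of the 6 libraries ran from 673221 to 831121, and the globin genes took 13.7% to 36.2% of it, with replicate 1 of STZ-A10 the lowest and replicate 3 the highest. The table holds no read totals, so that absolute depth is unknown, but low values moved in steps of whole reads. Over 109 rarely detected genes, 1 read was worth 0.975 to 1.04 times the median library in the 6 libraries. Only values near a common step entered this estimate, so that a large difference in depth could have been missed. Of values up to 3 reads, including those that set the step, 90.3% lay within 0.1 of a whole read. Libraries of one group correlated across genes with r of 0.949 to 0.979 in Con and 0.974 to 0.99 in STZ-A10, which describes genes within these libraries only.

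As background, insulin shortage shifts tissues from glucose to fatty acids and ketone bodies, and it is accompanied by a raised tone of the adrenal glucocorticoid hormones, which bind a nuclear receptor and switch on a well-known set of target genes in nearly every cell. The spleen filters blood in its red pulp, where macrophages take up aged red cells and where platelets are stored, and holds lymphocytes in its white pulp. RNA was taken from whole spleen, so that fewer cells of a type and less RNA per cell cannot be told apart.

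In STZ-A10 against Con, 12 of 12455 genes passed an adjusted p of 0.05, which is 0.0963% of those tested. Of these, 5 rose (0.0401%), namely Reg3b, Saa3, Pdk4, Per1 and Ier3, and 7 fell (0.0562%), among them Prm1, Kap, Prm2, Tnp1, Orm1 and Ass1. The 5 called genes that rose and the 7 that fell were separated without overlap between the 3 STZ-A10 and the 3 Con libraries, as 6.9% of all tested genes were in the higher and 6.42% in the lower direction. At an unadjusted p under 0.05 the test gave 604 genes higher (4.85%) and 634 lower (5.09%), and the median difference over all tested genes was 0.01 on the log2 scale. Differences are given throughout as STZ-A10 minus Con in mean log2(RPKM + 1), which understates the change of genes at low level, with the standard error (SE) of the fit and the Benjamini-Hochberg adjusted p of limma.

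**Figure D1:**
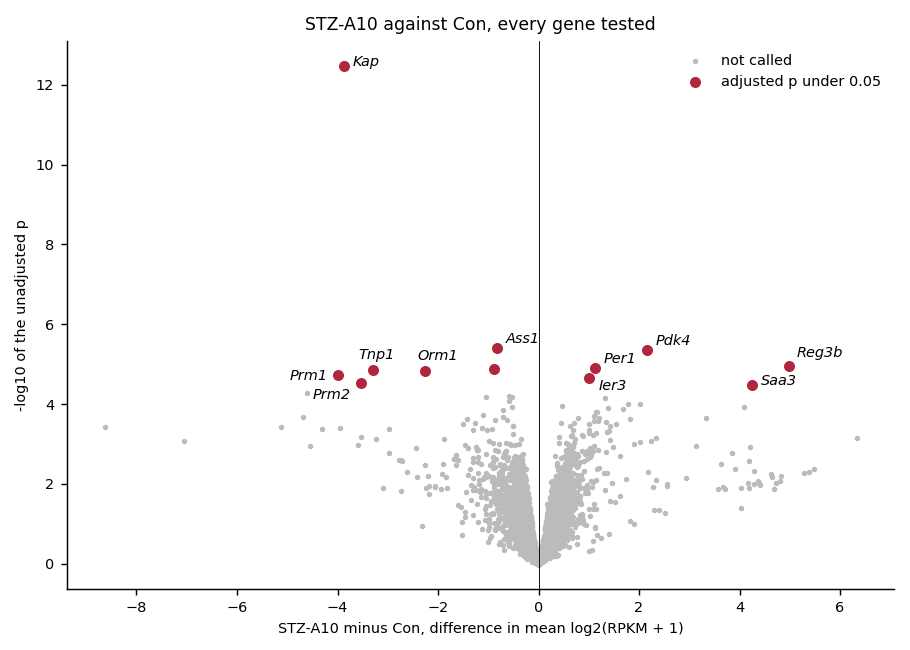
Difference between STZ-A10 and Con (horizontal axis, log2 scale) against the -log10 of the unadjusted p (vertical axis) for every tested gene. Each point is a gene, and the 12 in red passed an adjusted p of 0.05, with Kap far above the others.

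Pdk4 encodes the kinase that shuts off pyruvate dehydrogenase and thereby keeps glucose carbon out of the citric acid cycle. It stood at 1.71, 2.88 and 2.65 RPKM in the 3 Con libraries and at 14.7, 12.1 and 15.3 RPKM in the 3 STZ-A10 libraries, so that the lowest STZ-A10 value was above the highest Con value. The difference was 2.15 (SE 0.31, adjusted p = 0.0187). In A10 its levels were 2.67, 2.97 and 2.86 RPKM, within or close to the range of Con, and in STZ they were 10.1, 13.9 and 4.13 RPKM. Both transplant groups, also given streptozotocin, overlapped Con. They stood at 2.65, 2.31 and 1.45 RPKM with donors given AOS and at 2.52, 2.75 and 5.41 RPKM with control donors.

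Per1 encodes a repressor of the circadian clock whose gene is also switched on directly by glucocorticoids. Its levels were 5.42, 7.04 and 9.14 RPKM in Con and 16, 14.4 and 19.4 RPKM in STZ-A10, a rise of 1.12 (SE 0.18, adjusted p = 0.0235). The STZ libraries held 15.2, 20.2 and 12.2 RPKM and the A10 libraries 8.17, 7.41 and 8.32 RPKM, so that STZ and STZ-A10 lay above Con and A10. The transplant groups, also given streptozotocin, overlapped Con. Per1 stood there at 7.49, 7.55 and 7.89 RPKM with donors given AOS and at 8.89, 9.27 and 11.4 RPKM with control donors.

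Ier3, an early response gene that modulates cell survival, was at 4.28, 4.46 and 4.54 RPKM in Con, a narrow range, and at 9.04, 10.7 and 10.1 RPKM in STZ-A10. It rose by 1.01 (SE 0.17, adjusted p = 0.0274). In STZ it was at 9.71, 15 and 11.6 RPKM and in A10 at 3.41, 4.3 and 3.32 RPKM. STZ and STZ-A10 again did not overlap Con and A10. Of 25 tested early response genes, Ier3 was the only one called, 3 were higher and 0 lower at an unadjusted p under 0.05, and Fos and Jun, chosen after their values were seen, differed by -0.24 (adjusted p = 0.963) and -0.77 (adjusted p = 0.663).

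Ass1, argininosuccinate synthase, makes the precursor from which arginine is regenerated. It was measured at 27.4, 33.6 and 31.6 RPKM in Con and at 18, 16.4 and 16.3 RPKM in STZ-A10, a difference of -0.83 (SE 0.12, adjusted p = 0.0187). The STZ libraries, at 19.5, 16 and 17.8 RPKM, covered nearly the same range as STZ-A10, and the A10 libraries, at 37.4, 31.6 and 39.2 RPKM, that of Con. Ass1 also stands in the liver list, whose other members are described with the markers of other tissues.

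**Figure D2:**
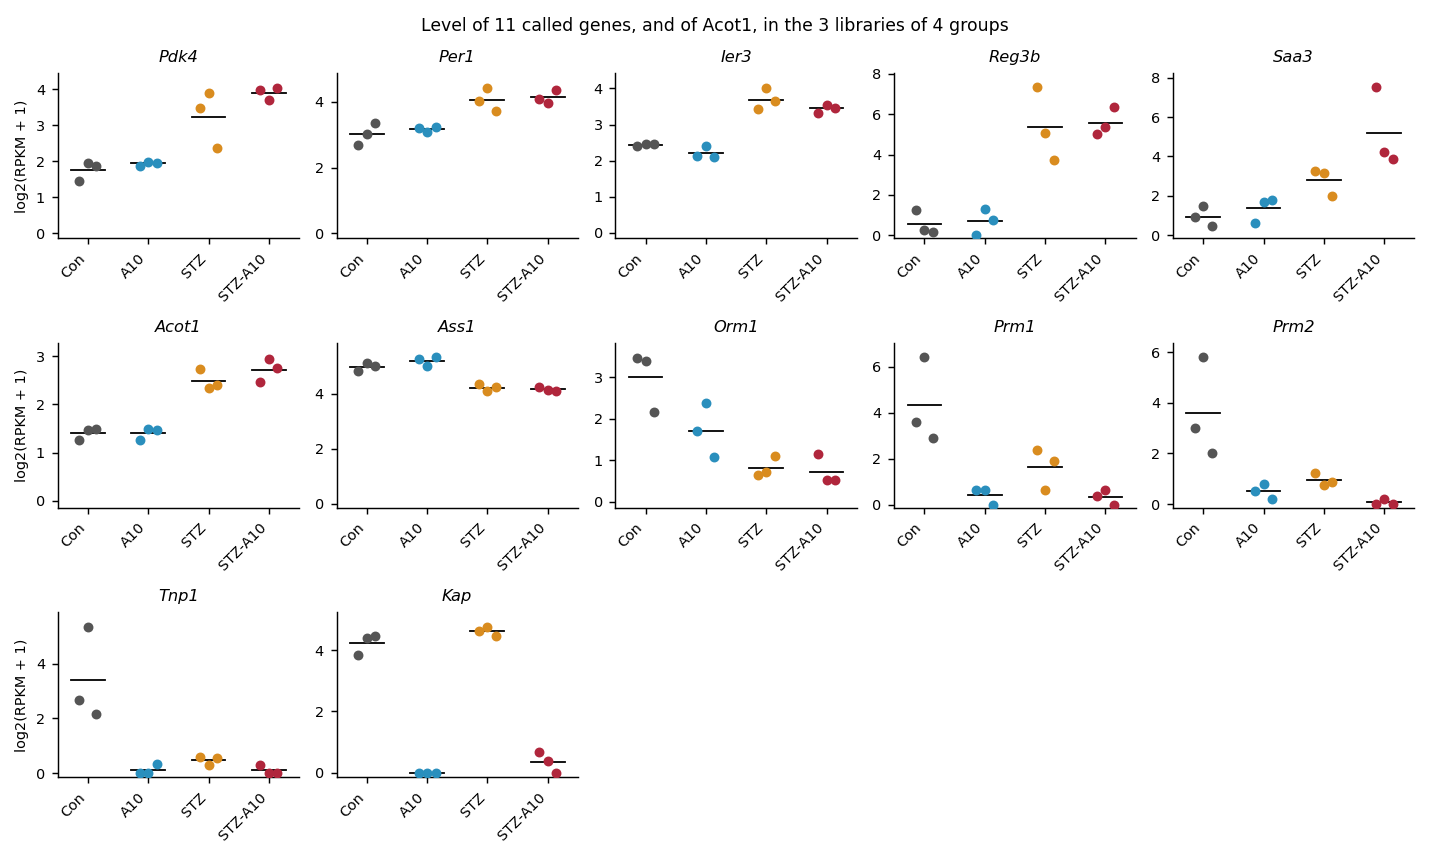
Level of 11 called genes, and of Acot1, which narrowly missed the threshold, as log2(RPKM + 1) in the groups Con, A10, STZ and STZ-A10. Each point is a library and each bar the mean of 3. Every STZ and STZ-A10 library lies above every Con and A10 library for Pdk4, Per1, Ier3 and Reg3b and below for Ass1, while Kap is at or near 0 in A10 and STZ-A10.

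The promoters of Pdk4, Per1, Ier3 and Ass1 are shown because the levels of these 4 genes separated STZ and STZ-A10 from Con and A10. In the transplant groups, also given streptozotocin, Ier3 and Ass1 kept this separation from Con and A10, while Pdk4 and Per1 did not. The sequences are the 250 bases before the gene start in RefSeq on GRCm38, which is the mm10 build named in the submitters' processing notes, printed 5′ to 3′ on the strand of the gene. Capitals mark matches, on either strand, to an E-box (CACGTG, bound by the clock activators), a cAMP response element (TGACGTCA), a site of the insulin-restrained FOXO factors (TGTTTAC), the box near many starts that is spelled TATAAA, or a glucocorticoid receptor element (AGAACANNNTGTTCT). None of these motifs overlapped another in the matches found. Per1 lies at chr11:69095217-69109960 on the plus strand, Pdk4 at chr6:5483351-5496309 on the minus strand, Ier3 at chr17:35821684-35822923 on the plus strand and Ass1 at chr2:31470207-31520672 on the plus strand, all annotated as protein-coding in GENCODE, whose gene boundaries are not identical to those of RefSeq.
Per1 upstream start, chr11:69098699-69098948: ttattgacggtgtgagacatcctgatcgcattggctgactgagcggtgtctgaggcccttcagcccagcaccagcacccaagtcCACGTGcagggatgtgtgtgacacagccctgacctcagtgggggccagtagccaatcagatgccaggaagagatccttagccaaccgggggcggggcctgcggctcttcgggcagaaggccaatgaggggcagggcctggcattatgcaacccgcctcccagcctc
Pdk4, chr6:5496279-5496528: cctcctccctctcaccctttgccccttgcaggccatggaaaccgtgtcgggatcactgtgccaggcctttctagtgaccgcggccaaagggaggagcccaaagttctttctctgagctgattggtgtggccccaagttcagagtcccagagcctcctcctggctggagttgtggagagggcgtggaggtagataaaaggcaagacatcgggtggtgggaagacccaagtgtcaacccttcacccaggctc
Ier3, chr17:35821463-35821712: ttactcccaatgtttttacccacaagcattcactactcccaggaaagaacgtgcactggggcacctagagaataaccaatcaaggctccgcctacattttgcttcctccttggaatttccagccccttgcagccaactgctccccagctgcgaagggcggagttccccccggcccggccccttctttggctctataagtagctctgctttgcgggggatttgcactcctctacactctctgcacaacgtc
Ass1, chr2:31470020-31470269: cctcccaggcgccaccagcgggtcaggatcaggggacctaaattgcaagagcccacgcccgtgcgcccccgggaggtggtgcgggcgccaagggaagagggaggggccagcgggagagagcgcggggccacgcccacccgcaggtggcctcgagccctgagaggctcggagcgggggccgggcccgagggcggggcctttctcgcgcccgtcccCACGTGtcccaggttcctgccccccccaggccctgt

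An E-box was present in the window of the upstream Per1 start, 166 bases before it, and in that of Ass1, 36 bases before the start. By comparison 6.02% of 32851 promoter windows of this length held one, while the cAMP response element was found in 1.55%, the FOXO site in 3.17%, the TATA box in 12.4% and the full glucocorticoid receptor element in 0.00913% of all windows. The windows of Pdk4 and Ier3 held none of these letters, which says nothing of sites elsewhere. RefSeq gives Per1 another start further downstream, whose window at chr11:69099902-69100151 held none of them either.

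Pdk4 and Per1 both belong to a list of glucocorticoid-induced genes. Of 20 tested members, 2 rose, 15 were higher and 0 lower at an unadjusted p under 0.05, and the median difference was 0.90, beside 0.01 over all tested genes. The summed level of the list was 532 to 569.5 RPKM in the Con libraries and 758 to 1057 RPKM in those of STZ-A10, with A10 from 492 to 542 RPKM and STZ from 871 to 1150.3 RPKM. Fkbp5, a chaperone partner of the receptor and a standard marker of its activity, was at 8.82, 9.93 and 9.56 RPKM in Con and 39.8, 18.2 and 24.8 RPKM in STZ-A10, a difference of 1.39 (SE 0.27) that missed the threshold (adjusted p = 0.0638). Every STZ-A10 library lay above every Con library for this gene, as for 13 of the 20 tested members and for 6.9% of all tested genes.

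Further members, of which all but Fam107a and Cdkn1a were chosen after their values were seen, gave differences of similar size without passing the test, with the exception of Dusp1. Klf9 and Klf15, transcription factors that glucocorticoids induce in metabolic tissue, differed by 0.99 (adjusted p = 0.0838) and 1.37 (adjusted p = 0.0984). Ddit4, an inhibitor of the growth kinase mTOR, was at 16.5, 28 and 31.7 RPKM in Con and 64.4, 50.5 and 52.1 RPKM in STZ-A10 (difference 1.14, adjusted p = 0.0994). Fam107a differed by 1.14 (adjusted p = 0.0701), from low levels of 0.27, 0.63 and 0.58 RPKM to 3.08, 1.8 and 2.07 RPKM. Cdkn1a, the p21 inhibitor of the cell cycle, which is induced by glucocorticoids and by p53, was at 8.01, 8.61 and 7.12 RPKM in Con and 12.2, 13.8 and 17.3 RPKM in STZ-A10 (difference 0.78, adjusted p = 0.0795). The metallothioneins Mt1 and Mt2, which bind zinc, differed by 0.90 (adjusted p = 0.178) and 0.90 (adjusted p = 0.299). Dusp1, a phosphatase that is both a glucocorticoid target and an early response gene, differed by -0.06 (adjusted p = 0.981), with Con libraries from 17 to 45.8 RPKM and STZ-A10 libraries from 21.9 to 33.3 RPKM.

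Per1 is shared with the list of circadian clock genes, in which 1 of 17 tested members rose, 6 were higher at an unadjusted p under 0.05 and 0 lower, with a median of 0.40. Nr1d1 encodes REV-ERBα, the nuclear receptor that represses the clock activator Bmal1. It was at 1.61, 1.99 and 2.13 RPKM in Con and 12.7, 12.9 and 7.6 RPKM in STZ-A10 (difference 2.02, SE 0.39, adjusted p = 0.0634), and A10 lay between them at 5.68, 6.09 and 3.15 RPKM. The output gene Dbp (0.89, adjusted p = 0.591), Nr1d2 (0.79, adjusted p = 0.409) and Cry2 (0.54, adjusted p = 0.161) were each without overlap between the groups, and the activators Clock (-0.04, adjusted p = 0.973) and Arntl, the symbol for Bmal1 (-0.17, adjusted p = 0.86), were not, and all of these but Cry2 were chosen after their values were seen. In all, 9 of the 17 tested clock genes were higher without overlap, compared with 6.9% of all tested genes. In STZ against A10, which uses none of these 6 libraries, the list's median was 0.09, beside -0.06 over all tested genes. There 14 of the 17 had the same direction and 1 was called, and Nr1d1 differed by 0.34 (adjusted p = 0.721). The hour at which the spleens were taken is not given in the sources used here.

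**Figure D3:**
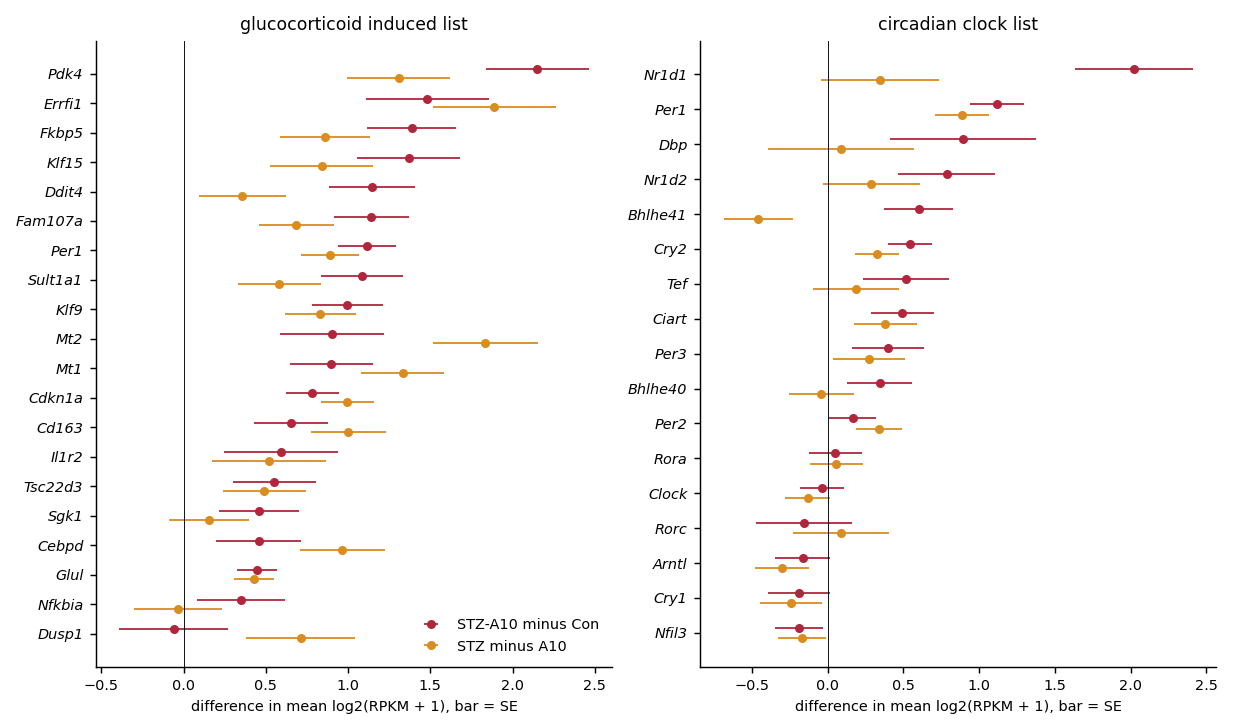
Differences for every tested member of the glucocorticoid-induced list (left) and the clock list (right), as STZ-A10 minus Con in red and STZ minus A10 in orange, on the log2 scale with the SE as bars. The 2 comparisons share no library, and Pdk4, Errfi1, Fkbp5, Klf15 and Per1 lie to the right of 0 in both.

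Among genes of fatty acid use, 1 of 25 tested members rose, which was Pdk4 again, 9 were higher and 0 lower at an unadjusted p under 0.05, and the median was 0.11. Acot1, a thioesterase that frees fatty acids from coenzyme A and a known target of the lipid sensor PPARα, was at 1.39, 1.77 and 1.81 RPKM in Con and 4.53, 6.68 and 5.72 RPKM in STZ-A10 and did not pass the test (difference 1.31, SE 0.24, adjusted p = 0.0527). Angptl4, which inhibits lipoprotein lipase, differed by 0.65 (adjusted p = 0.137), and Slc25a20, the carrier of acylcarnitine into mitochondria, by 0.54 (adjusted p = 0.146). Enzymes of β-oxidation itself, named after their values were seen, gave small differences, such as -0.17 for Acadm (adjusted p = 0.752) and -0.03 for Hadha (adjusted p = 0.97).

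On the side of lipid synthesis, 7 of 26 tested members were lower and 0 higher at an unadjusted p under 0.05, and the median was -0.16, or -0.07 without replicate 3 of STZ-A10. Among those below that p were, without passing the test, Msmo1 (-0.51, adjusted p = 0.211), Hmgcs1 (-0.44, adjusted p = 0.262), Cyp51 (-0.39, adjusted p = 0.302), Nsdhl (-0.32, adjusted p = 0.306), Sc5d (-0.33, adjusted p = 0.461) and the sterol carrier Stard4 (-0.41, adjusted p = 0.346). Nsdhl, Sc5d and Stard4, like Fasn, lie outside the 4 smallest p of the list and were added after their values were seen. Fasn, which makes palmitate, differed by -0.04 (adjusted p = 0.98), with Con at 8.38, 11.7 and 11.6 RPKM and STZ-A10 at 12.8, 9.06 and 8.97 RPKM.

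None of 28 tested genes of glycolysis and glucose handling passed the test by limma, 2 were higher and 2 lower at an unadjusted p under 0.05, and the median was -0.04, or 0.06 without replicate 3 of STZ-A10. Txnip, a glucose-induced inhibitor of thioredoxin, was the member with the smallest p, at 103, 140.0 and 225 RPKM in Con and 355, 267 and 322 RPKM in STZ-A10 (difference 1.07, SE 0.27, adjusted p = 0.14). In the heat shock list 0 of 19 passed the test, 8 were lower at an unadjusted p under 0.05, all 19 differences were below 0 and the median was -0.59. The inducible chaperones Hspa1a and Hspa1b, near-identical copies whose reads can be split between them, varied widely within Con, Hspa1b from 15.4 to 141 RPKM, against 3.61, 3.88 and 7.63 RPKM in STZ-A10 (difference -3.10, adjusted p = 0.299).

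To see what remained in the presence of AOS, STZ-A10 was set against STZ. In that comparison Kap was the only called gene (0.00803% of those tested) and 365 genes (2.93%) were below an unadjusted p of 0.05. For genes called in STZ-A10 against Con, the difference between STZ-A10 and STZ, with its 95% interval not adjusted for the number of genes, was 0.07 for Per1 (-0.30 to 0.45), -0.24 for Ier3 (-0.60 to 0.12), -0.07 for Ass1 (-0.32 to 0.19) and 0.66 for Pdk4 (-0.0026 to 1.32). For Per1, Ier3 and Ass1 these intervals leave out a difference as large as the one from Con, while a smaller effect of AOS was not detectable with 3 libraries a group. The interval of Pdk4 lay almost wholly above 0, but the difference did not pass the test by limma (adjusted p = 0.991). The STZ libraries ranged from 4.13 to 13.9 RPKM for this gene. For STZ against Con, which shares the Con libraries, the differences were 1.49 for Pdk4 (adjusted p = 0.0622), 1.04 for Per1 (adjusted p = 0.0388), 1.25 for Ier3 (adjusted p = 0.0113), and -0.76 for Ass1 (adjusted p = 0.0259), with 22 genes called in all (0.177%).

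The comparison of STZ with A10 uses none of the 6 libraries above and so sets streptozotocin against AOS alone in other libraries. It called 127 genes (1.02%). All 5 genes that rose in STZ-A10 were higher in STZ than in A10 as well, and 3 of the 7 that fell were lower. Of these 8, 5 passed the test there, among them Ier3 (1.47, adjusted p = 9.82e-04), Ass1 (-0.98, adjusted p = 0.00147), Reg3b (4.69, adjusted p = 0.0138) and Per1 (0.89, adjusted p = 0.0266). Pdk4 (1.31, adjusted p = 0.0594), Saa3 (1.45, adjusted p = 0.385) and Orm1 (-0.89, adjusted p = 0.274) kept their direction without passing. Over the 1238 genes below an unadjusted p of 0.05 in STZ-A10 against Con, 1043 (84.2%) had the same direction in STZ against A10, compared with 57.3% of all tested genes. Of the 20 glucocorticoid-induced genes, 6 were called there, among them, by choice after their values were seen, Mt2 (1.83, adjusted p = 0.0159), Cdkn1a (1.00, adjusted p = 0.0134) and Errfi1 (1.89, adjusted p = 0.0266), and the list's median was 0.83, beside -0.06 over all tested genes.

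The lists of cell type genes held no gene that passed the test by limma, neither for platelets, red pulp macrophages, neutrophils, NK cells, T cells, B cells, plasma cells, erythroid cells and dendritic cells nor for complement, interferon response and cell cycle. In the platelet and megakaryocyte list all 36 tested members were lower in STZ-A10 than in Con, 26 at an unadjusted p under 0.05, and the median was -0.73, or -0.41 without replicate 1 of Con. The summed level of the list was 3182, 1792 and 1394 RPKM in the Con libraries, highest in replicate 1, and 927, 1321 and 934 RPKM in those of STZ-A10. The serotonin transporter Slc6a4, with which platelets take up serotonin, was at 33.2, 17.4 and 11.9 RPKM in Con and 5.66, 8.5 and 5.89 RPKM in STZ-A10 (difference -1.40, SE 0.36, adjusted p = 0.14). The collagen receptor Gp6 differed by -1.23 (adjusted p = 0.146), Cavin2 by -0.66 (adjusted p = 0.147) and Rgs18 by -1.04 (adjusted p = 0.158). The chemokine Pf4, stored in platelet granules and chosen after its values were seen, stood at 200.2, 292 and 180.4 RPKM in STZ-A10, between the STZ libraries at 134, 94.1 and 286 RPKM and the Con libraries at 897, 451 and 325 RPKM, with overlap between STZ-A10 and STZ. The list's median was -1.34 in STZ against Con, -0.50 in A10 against Con and 0.52 in STZ-A10 against STZ, comparisons that share libraries with the main one.

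Genes of red pulp macrophages lay higher, 22 of 23 tested, 16 of them at an unadjusted p under 0.05, with a median of 0.56. Cd5l, a secreted macrophage protein, was at 16, 15.2 and 16.7 RPKM in Con and 42.7, 20.6 and 38 RPKM in STZ-A10 (difference 0.97, adjusted p = 0.147). The efferocytosis receptor Mertk differed by 0.69 (adjusted p = 0.158), the integrin Itgad by 0.68 (adjusted p = 0.162) and Csf1r, the receptor on which macrophages depend, by 0.56 (adjusted p = 0.165). Of 2 genes chosen after their values were seen, Spic, which specifies this cell type, differed by 0.39 (adjusted p = 0.274), and the pan-macrophage gene Cd68 by 0.02 (adjusted p = 0.98). Without replicate 1 of STZ-A10 the median of the list was 0.30. The list's summed level overlapped, at 2452, 2145 and 2309 RPKM in Con and 3067, 2001 and 2451 RPKM in STZ-A10. Its median was 0.39 in STZ against Con, 0.18 in A10 against Con and 0.15 in STZ-A10 against STZ. These comparisons share libraries with the main one. The complement list, which shares C1qa, C1qb and C1qc with the macrophage list, had 6 of 20 members higher and 1 lower at an unadjusted p under 0.05, led by the membrane attack component C6 (3.75, 5.28 and 4.1 RPKM in Con, 10.6, 5.7 and 10.8 RPKM in STZ-A10, difference 0.87, adjusted p = 0.104).

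In the list of NK and cytotoxic genes 18 of 21 members were lower, 5 at an unadjusted p under 0.05, with a median of -0.32, or -0.21 without replicate 2 of STZ-A10, and with values of -0.78 for the receptor gene Klra8 (adjusted p = 0.232), one of a family of near-identical genes, and -0.73 for Nkg7 (adjusted p = 0.271). Medians were -0.12 for T cells, -0.01 for B cells, 0.24 for plasma cells, 0.05 for dendritic cells and MHC class II, 0.13 for white pulp stroma and homing, 0.13 for interferon-stimulated genes, 0.17 for endothelium and -0.13 for the cell cycle, with at most 2 members of any of these below an unadjusted p of 0.05. Each of these medians changed sign or moved by over 1.5 times with 1 library left out. Without replicate 1 of STZ-A10 they were -0.10 for dendritic cells and MHC class II, 0.07 for the cell cycle, 0.03 for plasma cells and 0.06 for endothelium, and without replicate 3 of STZ-A10 the median was 0.15 for B cells. Without replicate 3 of Con they were 0.08 for T cells and 0.06 for interferon-stimulated genes, and without replicate 1 of Con the median was -0.03 for white pulp stroma and homing. The low-affinity IgE receptor Fcer2a of follicular B cells was the B cell gene with the smallest p, at 79.1, 91.9 and 142 RPKM in Con and 50.3, 51.9 and 42.9 RPKM in STZ-A10 (difference -1.05, adjusted p = 0.385). Lists of p53 targets, antioxidant genes, iron recycling and extracellular matrix had medians of 0.18, -0.05, 0.02 and -0.23 and no called member, with 3 and 0, 1 and 0, 3 and 1, and 0 and 5 members higher and lower at an unadjusted p under 0.05. Without replicate 2 of Con the median of the matrix list was -0.08, without replicate 1 of Con that of p53 targets was 0.07, and the medians of the antioxidant and iron lists changed sign under 4 and 7 of 13 alternatives. In the matrix list the collagen gene Col3a1 gave the smallest p, at 30.9, 38.6 and 32.5 RPKM in Con and 15.9, 17 and 12.6 RPKM in STZ-A10 (difference -1.12, adjusted p = 0.0882).

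**Figure D4:**
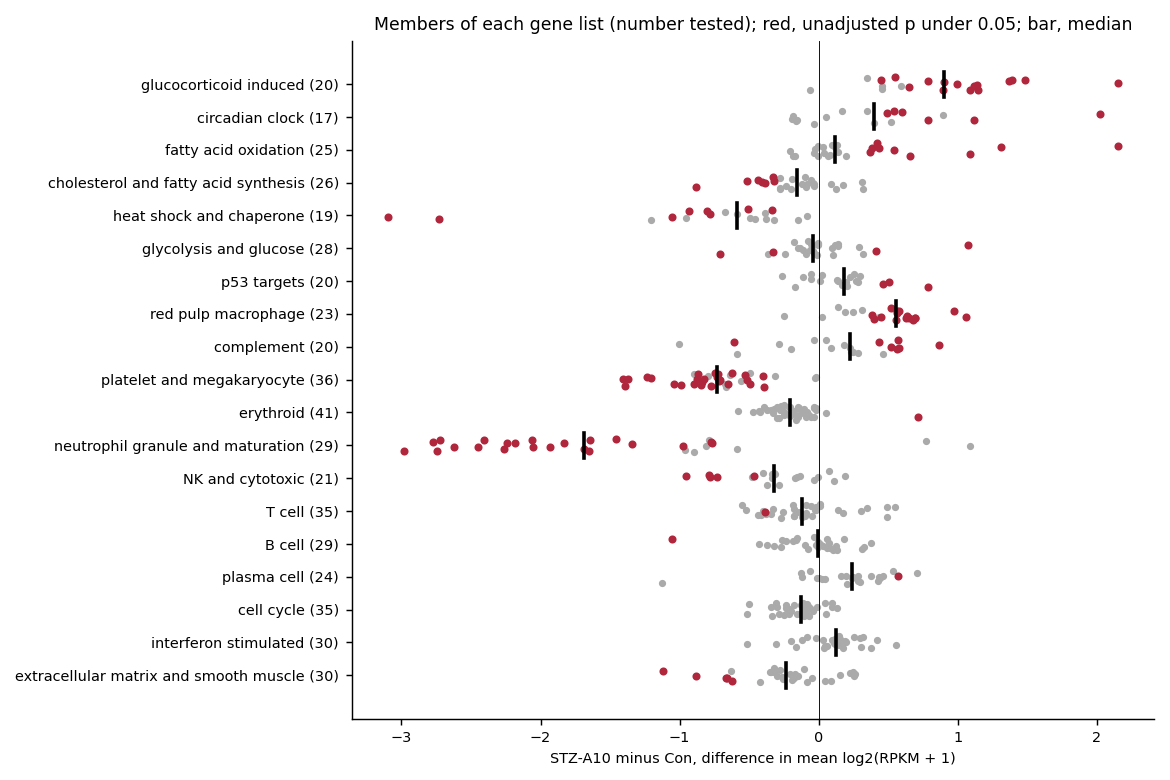
Difference between STZ-A10 and Con on the log2 scale for every tested member of 19 gene lists, whose number tested stands in brackets. Red points have an unadjusted p under 0.05 and the black bar is the list's median, which is highest for the glucocorticoid-induced list and lowest for the neutrophil list.

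Genes of neutrophil granules had a median difference of -1.68, or -0.94 without replicate 1 of Con, with 22 of 29 members lower at an unadjusted p under 0.05. Their summed level was 17828, 4964 and 1027 RPKM in the 3 Con libraries, so that it differed more than 10-fold within Con, and 1360.2, 817 and 649.6 RPKM in STZ-A10. Lactoferrin, Ltf, was at 397, 116 and 20.1 RPKM in Con and 10.2, 13.8 and 11.1 RPKM in STZ-A10 (difference -2.98, adjusted p = 0.158). The same list had a median of -1.71 in A10 against Con and of -0.08 in STZ against A10, the comparison without Con libraries. The erythroid list had a median of -0.21, with 39 of 41 tested members lower and 2 higher, and the median turned to 0.19 without replicate 1 of STZ-A10. Among its members 1 had an unadjusted p under 0.05. That gene, one of the 2 that were higher, was Car1, a carbonic anhydrase of red cells, at 288, 304 and 233 RPKM in Con, 422, 537 and 402 RPKM in STZ-A10 and 734, 829 and 643 RPKM in STZ (difference from Con 0.72, adjusted p = 0.291).

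Of 8 genes listed for macrophage, homing, proliferation and cell death proteins that the study examined or named among its antibodies, none passed the test by limma, and 1, Cd163, had an unadjusted p under 0.05. Cd163, the scavenger receptor for hemoglobin, was at 1.28, 1.42 and 1.28 RPKM in Con and 3.8, 1.82 and 2.6 RPKM in STZ-A10 (difference 0.65, SE 0.23, adjusted p = 0.289). These libraries did not overlap, as was so in this direction for 6.9% of all tested genes. The homing chemokine Ccl21a differed by 0.82 (adjusted p = 0.529) and its receptor Ccr7 by -0.15 (adjusted p = 0.945). The proliferation marker Mki67 gave -0.21 (adjusted p = 0.93), Trp53 0.22 (adjusted p = 0.642), the death effector Bax 0.14 (adjusted p = 0.799), and the survival genes Bcl2 0.32 (adjusted p = 0.762) and Bcl2l1 -0.08 (adjusted p = 0.98).

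The remaining called genes are known from tissues other than the spleen, or respond to acute inflammation, and are given here with the whole marker lists. Reg3b, a lectin made by the exocrine pancreas and gut in injury, was at 1.42, 0.22 and 0.12 RPKM in Con and 31.2, 39.9 and 79.8 RPKM in STZ-A10, with a difference of 4.99 (SE 0.78, adjusted p = 0.0235). In STZ it was at 160.4, 32 and 12.4 RPKM and in A10 at 0, 1.48 and 0.69 RPKM. Of 32 tested exocrine pancreas markers, 1 rose, which was Reg3b, 30 were higher at an unadjusted p under 0.05, and the median was 4.19. It was 2.92 without replicate 3 of Con and 5.39 without replicate 1 of Con. Some members, such as Reg3b and Prss3 (1.2, 0.10 and 0 RPKM in Con), needed the STZ-A10 libraries to pass the RPKM floor. The list's summed level was 2811, 459 and 39.2 RPKM in Con and 8392, 9084 and 13301 RPKM in STZ-A10, and the digestive protease Prss2 was at 148, 23.8 and 0.52 and 402, 467 and 638 RPKM. In Con, Prss1 and Cela3a were listed at 0 in all 3 libraries, and in STZ-A10 no marker of the list was. The summed level was 1877 to 8469.6 RPKM in STZ and 69.7 to 1087 RPKM in A10. Of the 11 islet markers none was tested and both insulin genes were listed at 0 in all 6 libraries. The part of pancreatic tissue in the Reg3b result was not tested.

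Saa3, an acute-phase serum amyloid made outside the liver by macrophages, fat and mesothelium, was at 0.89, 1.79 and 0.38 RPKM in Con and 182, 17.8 and 13.5 RPKM in STZ-A10 (difference 4.25, SE 0.74, adjusted p = 0.0351). Replicate 1 of STZ-A10 stood about an order of magnitude above the other libraries of its group, yet all 3 lay above every STZ library (8.62, 7.97 and 3.01 RPKM) and every A10 library (0.56, 2.21 and 2.42 RPKM). Against STZ the difference was 2.39 (95% interval 0.82 to 3.95, adjusted p = 0.991).

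Orm1, an acute-phase glycoprotein secreted mainly by the liver, fell from 9.93, 9.38 and 3.45 RPKM in Con to 1.2, 0.44 and 0.43 RPKM in STZ-A10 (difference -2.27, SE 0.37, adjusted p = 0.0235). Of 22 tested members of the liver list, Orm1 and Ass1 fell, 17 were lower at an unadjusted p under 0.05 and the median was -1.91. With an RPKM of 1 required in all 6 libraries the median was -1.20. Some members, such as Mup7, had reached the floor through Con alone. Albumin, the most abundant product of hepatocytes, was at 7.59, 105 and 98 RPKM in Con and 2.79, 0.25 and 0.10 RPKM in STZ-A10 (difference -4.69, adjusted p = 0.0795), and the urinary protein gene Mup7, one of a family of near-identical copies, at 5.15, 59.8 and 48.6 and 0.27, 0.03 and 0 RPKM (adjusted p = 0.052). The summed level of the liver list was 393, 1332 and 1089 RPKM in Con, 334, 227 and 219 RPKM in STZ-A10, 214 to 273 RPKM in STZ and 409.6 to 620.3 RPKM in A10, and Serpina1e was the single marker listed at 0 in all STZ-A10 libraries. Replicate 1 of Con held 7.59 RPKM of albumin and 27.4 RPKM of Ass1, and replicate 2 held 105 and 33.6 RPKM. The part of liver RNA in the results for Orm1 and Ass1 was not tested.

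Prm1, Prm2 and Tnp1 encode the protamines and a transition protein that pack sperm DNA. Prm1 was at 11.3, 85.6 and 6.56 RPKM in Con and 0.28, 0.57 and 0 RPKM in STZ-A10 (difference -3.99, adjusted p = 0.0258), Prm2 at 6.93, 55 and 3.0 and 0, 0.15 and 0 RPKM (-3.53, adjusted p = 0.0334) and Tnp1 at 5.44, 39.5 and 3.47 and 0.25, 0 and 0 RPKM (-3.29, adjusted p = 0.0235). By the steps of their low values none of the 3 had more than about 2 reads in any STZ-A10 library, against about 13 to 380 in Con. Replicate 2 of Con was the highest for all 3 genes, and without it the differences were -2.93, -2.43 and -2.32. Prm1 was also low outside Con, at 0.57, 0.57 and 0 RPKM in A10 and 4.24, 0.55 and 2.74 RPKM in STZ. Of 27 germ cell markers in the table, 8 were tested, 3 fell, Akap4 and Ropn1 were listed at 0 in all STZ-A10 libraries, and the summed level was 58.5, 378 and 32.1 RPKM in Con and 16.5, 19.2 and 16.7 RPKM in STZ-A10. Among the 6 libraries, Prm1, Prm2 and Tnp1 reached the RPKM floor of 1 through Con alone. The median of the tested markers was -1.56, or -0.06 with an RPKM of 1 required in all 6 libraries. The part of testis RNA in these values was not tested. Fat markers such as Adipoq, a hormone of adipocytes, had no called member, 1 higher and 3 lower at an unadjusted p under 0.05, a summed level of 187 to 462 RPKM in Con and 191 to 321 RPKM in STZ-A10 and a median of -0.55. Skeletal muscle and Y-linked lists had medians of -0.35 over 3 genes and -0.07 over 4 genes, with no called member and 1 and 0 lower at an unadjusted p under 0.05. Without 1 library the medians were -0.35 for fat (replicate 2 of Con), -0.11 for muscle (replicate 1 of STZ-A10) and 0.05 for the Y-linked list (replicate 3 of Con). With an RPKM of 1 required in all 6 libraries the median was -0.12 for fat, and with no filter it was -0.04 for muscle.

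**Figure D5:**
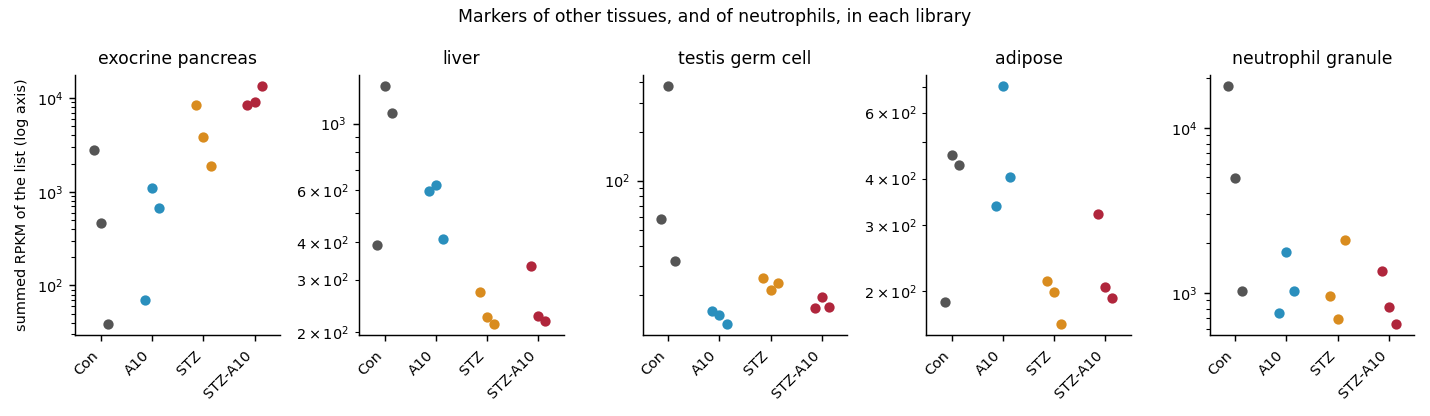
Summed RPKM (log axis) of the marker lists of exocrine pancreas, liver, testis germ cells, fat and neutrophil granules in each library of the groups Con, A10, STZ and STZ-A10. Each point is a library. The STZ-A10 libraries lie at 8392 to 13301 RPKM for the pancreas list, above every Con library, and the Con libraries spread widely in the neutrophil list.

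Kap, an androgen-regulated gene known from kidney tubules, gave the smallest p of the comparison. It was at 13.3, 20.1 and 21 RPKM in Con and at 0.60, 0.30 and 0 RPKM in STZ-A10, a difference of -3.88 (SE 0.17, adjusted p = 4.12e-09). Among the 6 libraries, Kap reached the RPKM floor of 1 through Con alone. The SE is pooled over all 18 libraries, some of them at 0. Under the alternatives to the main fit the adjusted p of Kap reached 0.00135 at most. The STZ libraries were close to Con, at 23.7, 25.9 and 20.9 RPKM, and Kap was listed at 0 in all 3 A10 libraries. By the step of its low values these levels stood for about 4, 2 and 0 reads in STZ-A10 and 96 to 141 in Con. Kap was also the single gene called between STZ-A10 and STZ (-4.26, SE 0.17, adjusted p = 1.02e-09), and in these 4 groups it was high in both without AOS and at or near 0 in both with it. In both transplant groups, whose animals had received streptozotocin, it stood at 0 to 0.14 RPKM. Of these transplant groups only one had donors given AOS. The labels name no batch of handling.

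The beta-globin genes differed between libraries in a pattern of their own. Hbb-bs was at 1914, 16795 and 21592 RPKM in Con and 102, 15.3 and 5.61 RPKM in STZ-A10 (difference -8.63, adjusted p = 0.0877) and Hbb-bt at 385, 3393 and 4220.3 and 20.8, 7.67 and 11.3 RPKM, whereas Hbb-b1 (0.36, adjusted p = 0.937), Hbb-b2 (0.35, adjusted p = 0.94), Hba-a1 (-0.22, adjusted p = 0.945) and Hba-a2 (-0.05, adjusted p = 0.99) gave small differences. These sequences are near-identical, which makes the single-gene values uncertain, and the cause of the pattern was not tested.

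Which genes were called depended on single libraries. Without replicate 3 of STZ-A10 1 gene was called (Kap), without replicate 1 of STZ-A10 4 and without replicate 2 of Con 5, against 15 without replicate 2 of STZ-A10, 27 without replicate 1 of Con and 56 without replicate 3 of Con. The direction of the 12 genes could not turn in these fits, because their STZ-A10 and Con libraries did not overlap. The highest adjusted p that any of them reached was 0.124.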

How the data were processed

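Spleen RNA was sequenced on an Illumina HiSeq instrument, and the authors deposited 1 table of RPKM values for 18 libraries, which are already divided by gene length and mapped reads. The study's methods name SOAPaligner against reference genes, whereas the submitters' processing notes name Bowtie 0.12.2 and mm10. Read counts were not used here. The worth of 1 read in each library relative to the others was read from the steps of genes listed at 0 in at least 4 libraries, with a smallest value of at least 0.1 RPKM that recurred in at least 4 libraries. Absolute depth is unknown, and so is the precision of low values. Of 19326 lines, 6 lines of 3 repeated names were left out, and 26 names looked like calendar dates. All 19320 names left were used as given, and the RPKM floor of 1 in 3 of the 6 libraries left 12455.

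Values were taken as log2(RPKM + 1) and fitted with limma 3.58.1 in R 4.3.3, with an intensity trend and 1 coefficient for each of the 6 groups over all 18 libraries. The test had 15.4 degrees of freedom in all, prior included, on the assumption that the spread was alike in every group. P-values were adjusted over all tested genes by Benjamini-Hochberg at 0.05. A permutation test of 3 libraries against 3 cannot give a two-sided p below 0.1. The script was tested on simulated data.

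Named genes were the called genes, the genes nearest the threshold where a direction had fewer than 6, up to 4 members of each list with the smallest p, 8 genes of proteins the study examined or named among its antibodies, and markers of other tissues with adult globins. Others are said to have been chosen after their values were seen. The members and the gene lists were chosen with earlier results of these data known. Promoters came from RefSeq (GRCm38.p6), which held 10 of the 12 called genes, and gene positions from GENCODE. Some genes are not reported here. Replicate numbers were not used as pairs. Alternatives changed the scaling, filter, pseudocount, trend, weights, libraries fitted and block.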

Additional observations from a re-analysis of the deposited data

How the results depend on the processing

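The 12 calls against Con became 30 after quantile normalization, 27 after median centring, 25 after rescaling without globin genes, 5 with an RPKM of 1 required in all 6 libraries, 19 in a fit of the compared groups alone and 1 at the stricter threshold of the study's methods. All 12 genes remained called under the 3 scalings, while the fit of the compared groups alone kept Kap, Pdk4, Ier3 and Reg3b, no filter lost Saa3 and Prm2, and a pseudocount of 0.1 lost Prm1 and Reg3b. With an RPKM of 1 required in all 6 libraries only 5 of the 12 were still tested, and all 5 stayed called. Leaving out 1 library at a time gave 1 to 56 calls against Con, 1 to 1 for STZ-A10 against STZ, 1 to 164 for STZ against Con, 13 to 139 for STZ against A10 and 0 to 0 for the interaction of both treatments.

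For STZ-A10 against STZ, calls moved from 1 to 5 with no filter and to 0 with an RPKM of 1 in all 6 libraries, where Kap was no longer tested. The 22 calls of STZ against Con became 12 (quantile), 8 (without globin genes), 7 (no filter), 4 (every library), 39 (pseudocount 0.1) and 0 (compared groups alone), and the 127 of STZ against A10 became 211 (quantile) and 208 (without globin genes). The replicate block gave 13 calls against Con, 11 of the 12 among them, and 3 for STZ against Con. Same-numbered libraries of Con and STZ-A10 correlated in their deviations with r of -0.319, -0.155 and -0.199, so the numbers were not taken as pairs.

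Array weights, whose estimation stopped before its tolerance was reached, gave 6052, 3746, 7761, 6785 and 2038 calls for STZ-A10 against Con, STZ-A10 against STZ, STZ against Con, STZ against A10 and the interaction, and a gene-by-gene estimate chosen after seeing the data gave 1902, 9, 3711, 4790 and 28. The cause was not tested. Of 1567 values of 93 genes under the alternatives, 1414 kept direction and side of the threshold, 50 no longer passed, 97 newly passed and 6 turned sign, all in genes that had not passed: Mki67 to 0.15 and Bax to -0.12 with array weights, and, with 1 library left out, Mki67 (range -0.43 to 0.19, positive without replicate 1 of STZ-A10), Bcl2l1 (-0.40 to 0.25, positive at 0.25 without replicate 1 of STZ-A10 and 0.20 without replicate 1 of Con) and Ccr7 (-0.41 to 0.14, positive without replicate 3 of Con). Of 32 list medians, 11 changed sign under some alternative. Absolute read depth could not be weighed, and genes at a few reads carry the largest counting error.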

Other observations

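Among genes that missed the threshold, several with an adjusted p under 0.1 were picked out after their values were seen. Alox15, a lipoxygenase of resident macrophages and eosinophils that oxidises polyunsaturated fatty acids, was at 1.87, 2.65 and 1.29 RPKM in Con, 2.08, 0.81 and 1.18 RPKM in STZ, 1.28, 3.96 and 3.0 RPKM in A10 and 9.13, 10.5 and 7.99 RPKM in STZ-A10. Its difference was 1.82 from Con (adjusted p = 0.0799) and 2.14 from STZ (adjusted p = 0.282), so that STZ-A10 stood alone among the 4 groups. Prg4, the lubricating proteoglycan of mesothelial and joint surfaces, showed the same order, at 2.95, 5.22 and 2.64 RPKM in Con, 4.27, 3.29 and 2.63 RPKM in STZ, 2.77, 4.84 and 6.39 RPKM in A10 and 16.2, 9.69 and 7.97 RPKM in STZ-A10 (1.40 from Con, adjusted p = 0.0937). Cyp1b1, a cytochrome P450 of stromal cells, was at 6.47, 9.44 and 10.8 RPKM in Con and 45.9, 29 and 25.7 RPKM in STZ-A10 (1.78, adjusted p = 0.0634).

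Oxct1, the enzyme with which tissues outside the liver use ketone bodies, was at 34.2, 35.4 and 32.2 RPKM in Con and 26.1, 21.1 and 19.7 RPKM in STZ-A10 (difference -0.60, SE 0.11, adjusted p = 0.059), and in the separate libraries it was lower in STZ than in A10 by the test (-0.70, adjusted p = 0.012). Hsd11b1, which regenerates active glucocorticoid inside cells, was at 44.3, 40.4 and 45 RPKM in Con and 26.2, 32 and 26.9 RPKM in STZ-A10 (difference -0.59, SE 0.11, adjusted p = 0.0527). Chst10, a sulfotransferase, differed by -1.05 (adjusted p = 0.0527) and the quinone reductase gene Nqo2 by -0.54 (adjusted p = 0.0527). For Oxct1, Hsd11b1, Chst10 and Nqo2 no STZ-A10 library reached the lowest Con library, as for 6.42% of all tested genes.

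No gene passed the test by limma for the interaction of streptozotocin and AOS, 354 had an unadjusted p under 0.05, and the alternatives gave 0 to 2038 calls.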
